A study of Mus musculus with 7 samples.

Results

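The genes described here are 41 components, regulators and receptors of complement. They were chosen by gene symbol from what is known of the pathway, though with earlier results of these data known. All were found by symbol among the 56691 genes of the count table. The data are counts of RNA sequencing reads per gene in whole liver from 4 control mice and 3 mice given lipopolysaccharide (LPS), the endotoxin of Gram-negative bacteria. All were male C57BL/6J mice, 8 weeks old when bought and housed for 2 weeks. The LPS mice received 10 mg/kg into the peritoneum and were killed 24 h later, and the labels name the control mice as control without giving an injection. The comparison asked which complement genes of the liver differ in RNA level after LPS. Counts summed to between 14991022 and 18584140 per control mouse and between 17095607 and 20500391 per LPS mouse. Levels are given in CPM, the usual unit of counts relative to library size, with library sizes scaled by edgeR's TMM factors.

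Complement is a set of plasma proteins that mark microbes and damaged cells for removal, call in leukocytes and can open pores in membranes. The classical, lectin and alternative pathways each start from their own recognition step and meet at C3, after which C5 to C9 build the pore; regulators in plasma and on cells limit each step. Hepatocytes secrete most of the circulating components, while C1q and properdin come mainly from macrophages and other myeloid cells, and production of many components changes in the acute phase response.

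The tissue label was checked with hepatocyte markers. Of 10 listed, 9 were measured, and their summed level was 67909, 66162, 93514 and 80039 CPM in control replicates 1 to 4 and 46006, 51094 and 50918 CPM in LPS replicates 1 to 3. Alb, which encodes albumin, was the most abundant. Of these markers 1 rose (Hnf4a), 4 fell (Alb, Apoa1, Ttr and Serpinc1) and 4 did not pass the test, so the list did not move in a single direction. Without LPS replicate 2 or LPS replicate 3 the calls of Alb (edgeR adjusted p = 0.0618 and 0.0642), Apoa1 (0.0600 and 0.0657), Hnf4a (0.0581 and 0.0506) and Serpinc1 (0.0902 and 0.0806) ended, and that of Ttr held; with these mice summed the same calls ended (0.0653, 0.0660, 0.0533 and 0.0911). Without LPS replicate 1 the calls of Apoa1 (0.0608) and Serpinc1 (0.106) ended, and that of Serpinc1 also ended without control replicate 3 or 4 (0.0561 and 0.0571), without the filter (0.0611) and with the replicate block (0.0557). Some libraries stood apart. LPS replicates 2 and 3 were more alike than any other pair of a group, with an SD of the log2 ratio of 0.14 over 3484 genes against 0.31 to 0.54 in the other pairs. LPS replicate 1 had the highest level of Kupffer cell markers, the resident macrophages of the liver. Mitochondrial genes took 23.7%, 14.6%, 7.48% and 8.96% of the counts in control replicates 1 to 4 and 6.45%, 3.83% and 3.94% in LPS replicates 1 to 3. What part these differences between libraries had in the results below was not tested.

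Of the 41 genes, 40 passed the filter on low counts and were tested with edgeR's quasi-likelihood test, with p-values adjusted over all 13683 genes tested. At an adjusted p below 0.05, 16 complement genes were higher and 9 were lower in LPS mice, and 15 did not pass. Among all genes tested, 26.3% passed in either direction, 13.3% higher and 13% lower; without scaling factors the split over all genes was 1350 higher and 2055 lower, against 1824 and 1773 with them. The median log2 fold change was 0.17 for the complement genes and -0.01 for all genes tested. The genes higher were 5 plasma regulators, 4 genes of the classical pathway, 3 of the alternative pathway and C3, 2 receptors, 1 gene of the lectin pathway and 1 membrane regulator. Those lower were 5 genes of the lectin pathway, 3 of the terminal pathway and 1 of the alternative pathway, and the branches were not compared by a test. The gene not tested was Fcnb, which encodes ficolin B and had 0 counts in every mouse; 3 counts, taken as the limit that 0 allows, correspond to between 0.138 and 0.212 CPM in these libraries, for counting error alone. C5ar1 reached the filter's minimum of 0.585 CPM in all 3 LPS mice but in 2 of 4 control mice, and Cfd reached it in 3 control mice and 0 LPS mice. These genes therefore entered the test through the group in which they were high. C5ar2, which was not called, entered it through the control mice, with 3 control mice and 1 LPS mouse at the minimum.

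Taken as a whole the complement genes held a larger share of the reads after LPS. Their share of all counts was 1.24%, 1.65%, 1.82% and 1.73% in control replicates 1 to 4 and 2.63%, 2.94% and 2.95% in LPS replicates 1 to 3. The groups did not overlap, and the summed level was 15498 ± 1777 CPM in control mice (SD, n = 4) and 29993 ± 4461 CPM in LPS mice (SD, n = 3). C3 accounted for much of this: it made up 17.5% to 25.3% of the complement reads in control mice and 36.5% to 40.1% of them in LPS mice. The share of the terminal components went the other way, from a range of 19.5% to 22.8% to a range of 8.13% to 8.3%. Their summed level went from 3334 ± 457 to 2467 ± 351 CPM (SD, n = 4 and n = 3), a smaller difference, since their share also falls as the other complement genes rise. Plasma regulators held 34.8% to 38.5% in control mice and 40.3% to 41.6% in LPS mice. These shares describe the reads and were not tested.

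**Figure D1:**
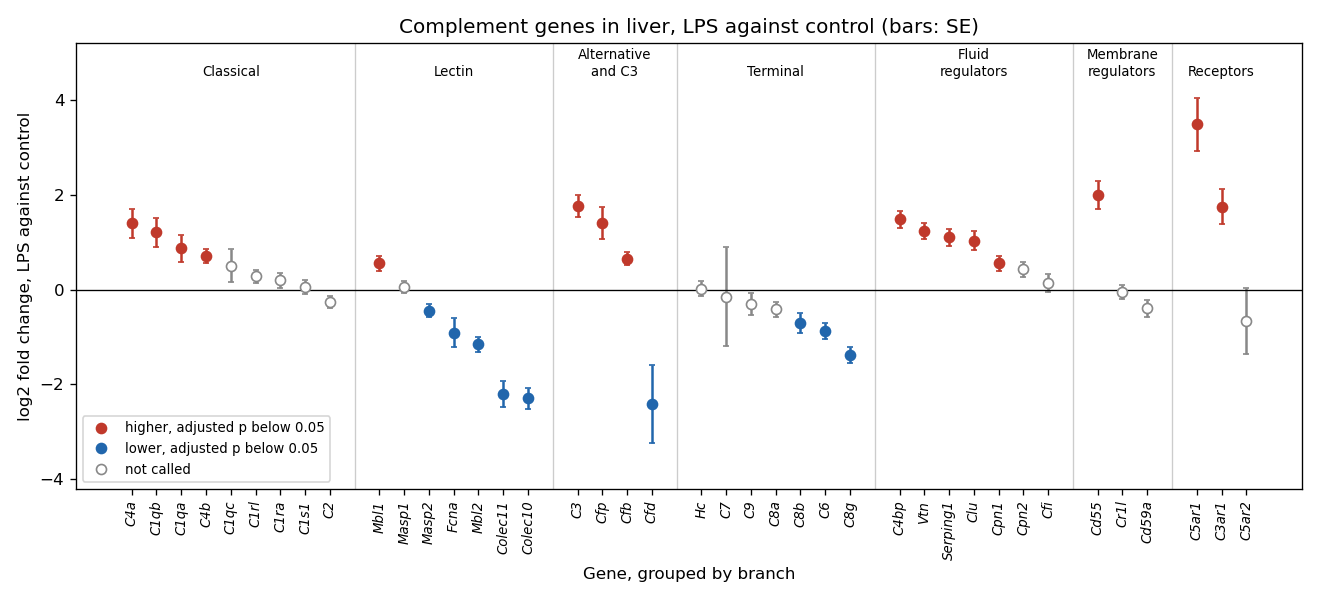
Log2 fold change of each tested complement gene, LPS against control (vertical axis, no unit), grouped by branch along the horizontal axis; points are estimates from 4 control and 3 LPS mice, bars are SE, and filled points passed an adjusted p below 0.05. The plasma regulators and receptors that passed lie above 0 and the terminal components that passed lie below 0, with C5ar1 highest at 3.49 and Cfd lowest at -2.42.

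The classical pathway had 4 of 9 genes higher, 0 lower and 5 that did not pass, with a median log2 fold change of 0.50. It starts with C1q, a recognition protein built from the chains encoded by C1qa, C1qb and C1qc. C1qa stood at 15.7, 20.6, 17.9 and 11.2 CPM in control replicates 1 to 4 and at 46.3, 18.6 and 24.4 CPM in LPS replicates 1 to 3. C1qb stood at 14.9, 14.8, 15.3 and 10.4 CPM in control mice and at 54.4, 21.0 and 20.1 CPM in LPS mice. C1qc stood at 13.6, 10.5, 13.9 and 7.44 CPM in control mice and at 27.9, 9.40 and 10.5 CPM in LPS mice. In each chain LPS replicate 1 was far above all other mice. For C1qa, LPS replicate 2 lay within the controls and LPS replicate 3 above them; for C1qc both lay within the controls, and for C1qb both lay above them. The log2 fold change was 0.87 for C1qa (SE 0.28, edgeR adjusted p = 0.0389), 1.21 for C1qb (SE 0.31, edgeR adjusted p = 0.0115) and 0.50 for C1qc (SE 0.35, edgeR adjusted p = 0.326). Without LPS replicate 1 these values were 0.40, 0.58 and -0.18, with edgeR adjusted p-values of 0.260, 0.0581 and 0.673, so the calls of C1qa and C1qb ended and the estimate of C1qc changed sign. The call of C1qa also ended without control replicate 1 (0.85, edgeR adjusted p = 0.0670), control replicate 4 (0.72, edgeR adjusted p = 0.0997) or LPS replicate 3 (1.00, edgeR adjusted p = 0.0538), with the replicate block (0.62, edgeR adjusted p = 0.148) and without scaling factors (0.80, edgeR adjusted p = 0.0738).

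Macrophage markers are given beside the C1q chains. Kupffer cell markers, of which 7 of 7 were tested, summed to 89.9, 143, 124 and 88.5 CPM in control replicates 1 to 4 and to 554, 89.5 and 89.2 CPM in LPS replicates 1 to 3. Marco, a scavenger receptor and the most abundant of them over all mice (though Clec4f led in the control mean), stood at 409 CPM in LPS replicate 1, 66.4 CPM in LPS replicate 2 and 65.5 CPM in LPS replicate 3, against 2.37 to 5.55 CPM in control mice. In the sum of the whole list LPS replicates 2 and 3 lay within the controls, but Marco carries much of that sum in LPS mice. Without Marco, a step chosen after its values were seen, the sum was 87.4, 137, 120 and 86.1 CPM in control mice and 145, 23.1 and 23.7 CPM in LPS mice, so that LPS replicates 2 and 3 lay below all controls and LPS replicate 1 above them. Adgre1 stood at 2.33, 4.92, 4.76 and 4.25 CPM in control mice and at 18.7, 8.62 and 10.1 CPM in LPS mice, all above the controls. Of the Kupffer cell list 2 rose (Marco and Adgre1), 1 fell (Clec4f) and 4 did not pass. Without LPS replicate 1 the log2 fold change of Marco went from 5.62 to 4.17 and that of Clec4f from -2.13 to -3.09, both still called, and Vsig4, at -0.92 with all mice, passed as lower (-1.92, edgeR adjusted p = 0.00107), as it did without the filter (-0.91, edgeR adjusted p = 0.00344). The monocyte and macrophage list, with 8 of 8 tested and Lyz2 the most abundant, had 4 higher (Cd68, Lyz2, Cybb and Ly6c2, of which Ly6c2 entered the test through the LPS mice) and 0 lower and summed to 61.1, 70.5, 73.9 and 42.7 CPM in control mice and to 186, 136 and 132 CPM in LPS mice. None of the markers of these lists was at 0 in all mice. The part of macrophage content in the C1q values was not tested, and in RNA from whole tissue fewer cells of a type and less RNA per cell cannot be told apart.

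**Figure D2:**
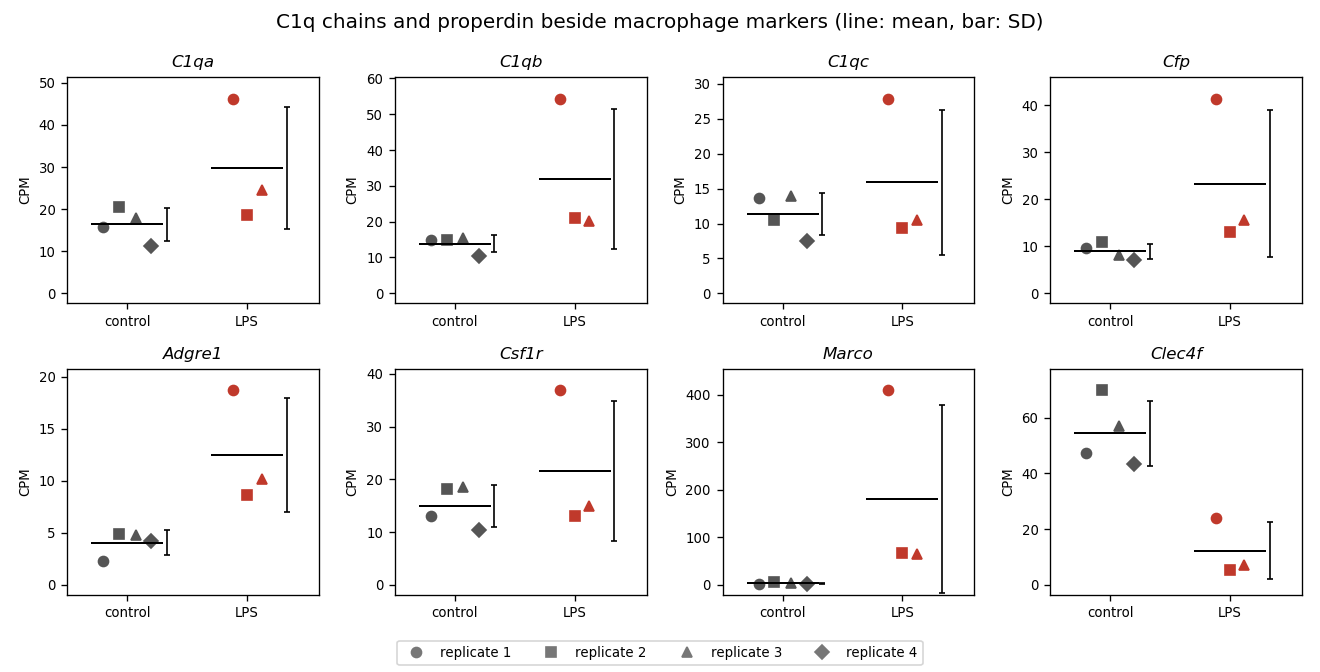
CPM (vertical axes) of the C1q chains and of Cfp, which encodes properdin, beside the macrophage markers Adgre1, Csf1r, Marco and Clec4f in each control mouse (grey) and LPS mouse (red), with the symbol giving the replicate, lines the mean and bars the SD. LPS replicate 1 is the highest LPS mouse in each panel, and for Clec4f, at 24.1 CPM, it is still below the lowest control at 43.4 CPM.

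Downstream of C1q, C4a and C4b rose, while the protease genes C1ra, C1s1, C1rl and C2 did not pass the test. C4b, which encodes the thioester protein C4 that is deposited on targets, was at 827 ± 114 CPM in control mice (SD, n = 4) and rose to 1350 ± 43.7 CPM in LPS mice (SD, n = 3), with a log2 fold change of 0.71 (SE 0.16, edgeR adjusted p = 0.00500), and each LPS mouse was above each control mouse. C4a, its neighbour in the gene family, stood at 11.3, 8.32, 3.42 and 5.56 CPM in control replicates 1 to 4 and at 19.2, 16.3 and 20.6 CPM in LPS replicates 1 to 3. The groups did not overlap, and the log2 fold change was 1.39 (SE 0.31, edgeR adjusted p = 0.00513). The longest transcripts of C4a and C4b in GENCODE M21 share 35.2% of their 50-base windows exactly, and C4a took between 0.419% and 1.5% of the reads of the pair, so the value of C4a is uncertain. With the reads of both genes summed, the log2 fold change was 0.71 (edgeR adjusted p = 0.00466). C1ra and C1s1, which encode the proteases C1r and C1s, went from 300.4 ± 25.3 to 344 ± 61.1 CPM and from 505 ± 51.7 to 523 ± 42.6 CPM (SD, n = 4 and n = 3), and neither passed (log2 fold changes of 0.20 with SE 0.16 and 0.05 with SE 0.15). Both share windows with copies, C1ra 48% with C1rb and C1s1 24.3% with C1s2, but these copies had at most 11 and 5 counts per mouse. C1rl, a C1r-like protease, and C2, the protease of the classical C3 convertase, had log2 fold changes of 0.28 (SE 0.13, edgeR adjusted p = 0.141) and -0.26 (SE 0.13, edgeR adjusted p = 0.153). The mice of the groups did not overlap in either gene, with C1rl above and C2 below the controls, yet the differences did not pass the test.

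The lectin pathway had 1 gene higher, 5 lower and 1 that did not pass of the 7 tested, with a median log2 fold change of -0.91. Its collectins and ficolins bind sugars on microbes, and its proteases then cut C4 and C2. Mbl1 and Mbl2, which encode the mannose-binding lectins, went in opposite directions. Mbl2 stood at 301, 332, 358 and 359.9 CPM in control replicates 1 to 4 and at 124, 168 and 163 CPM in LPS replicates 1 to 3. Each LPS mouse was below each control mouse, a log2 fold change of -1.16 (SE 0.16, edgeR adjusted p = 0.000154). Mbl1 stood at 274, 334, 282 and 256 CPM in control mice and at 334, 469 and 458 CPM in LPS mice. LPS replicate 1 and control replicate 2, at 334.44 and 334.36 CPM, were all but level, the groups otherwise lay apart, and the log2 fold change was 0.55 (SE 0.16, edgeR adjusted p = 0.0245). The reads of Mbl1 per read of Mbl2 were 0.912, 1.01, 0.786 and 0.710 in control mice and 2.70, 2.79 and 2.81 in LPS mice. This ratio, which no scaling between libraries can move, was above all controls in each LPS mouse, and LPS replicate 1 lay with the other LPS mice. The transcripts of Mbl1 and Mbl2 share 0% of their 50-base windows. The call of Mbl1 ended without control replicate 4 (0.50, edgeR adjusted p = 0.0689), LPS replicate 2 (0.47, edgeR adjusted p = 0.128) or LPS replicate 3 (0.49, edgeR adjusted p = 0.118), with LPS replicates 2 and 3 summed (0.49, edgeR adjusted p = 0.119) with the replicate block (0.49, edgeR adjusted p = 0.0507) and without scaling factors (0.42, edgeR adjusted p = 0.0724).

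Colec10 and Colec11 encode the collectins of liver and kidney type, which can form mixed complexes. Colec10 stood at 19.2, 17.0, 15.02 and 23.6 CPM in control replicates 1 to 4 and at 4.28, 3.09 and 4.04 CPM in LPS replicates 1 to 3. Colec11 stood at 27.5, 25.1, 12.9 and 24.7 CPM in control mice and at 6.40, 4.12 and 4.10 CPM in LPS mice. The groups lay apart for both genes, with control replicate 3 the lowest control of each. The log2 fold changes were -2.29 for Colec10 (SE 0.22, edgeR adjusted p = 8.63e-06) and -2.20 for Colec11 (SE 0.28, edgeR adjusted p = 8.81e-05). Hepatic stellate cells, the vitamin A storing cells around the sinusoids, are a known source of these collectins in mouse liver. Stellate cell markers, of which 9 of 9 were tested, had 0 higher, 3 lower (Lrat, Reln and Ecm1) and 6 that did not pass. They summed to 565, 403, 244 and 383 CPM in control mice and to 341, 283 and 266 CPM in LPS mice, with Dcn the most abundant and none at 0 in all mice. Control replicate 3 was the lowest control of this sum, as it was of the sum of sinusoidal endothelium markers. Among the controls this stellate sum and Colec11 were highest in replicate 1, and Colec10 was highest in replicate 4. The log2 fold changes of the markers lower were -2.32 for Reln (edgeR adjusted p = 1.04e-06), -1.33 for Lrat (edgeR adjusted p = 0.0182) and -0.88 for Ecm1 (edgeR adjusted p = 0.0274). Those that did not pass were at -0.57 for Hand2, -0.26 for Col3a1, -0.16 for Dcn, -0.11 for Des, 0.01 for Pdgfrb and 0.45 for Col1a1. The call of Lrat ended without control replicate 4 (edgeR adjusted p = 0.0524), LPS replicate 1 (0.0671) or LPS replicate 2 (0.0676) and with the replicate block (0.0823). That of Ecm1 ended without control replicate 1 (edgeR adjusted p = 0.0584), control replicate 2 (0.0742), LPS replicate 2 (0.113) or LPS replicate 3 (0.130) and with LPS replicates 2 and 3 summed (0.121). The part of stellate cell content in the values of Colec10 and Colec11 was not tested.

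Fcna, which encodes ficolin A of macrophages, was at 18.0 ± 6.03 CPM in control mice (SD, n = 4) and at 9.51 ± 4.48 CPM in LPS mice (SD, n = 3), with a log2 fold change of -0.91 (SE 0.31, edgeR adjusted p = 0.0477). LPS replicate 1, at 14.7 CPM, was above control replicates 3 and 4, at 12.4 and 14.3 CPM, so there was overlap. The call of Fcna ended without control replicate 1 (-0.87, edgeR adjusted p = 0.0793), control replicate 2 (-0.70, edgeR adjusted p = 0.148), LPS replicate 2 (-0.72, edgeR adjusted p = 0.185) or LPS replicate 3 (-0.74, edgeR adjusted p = 0.185), with LPS replicates 2 and 3 summed (-0.74, edgeR adjusted p = 0.176) and with at least 10 counts required in every mouse (-0.93, edgeR adjusted p = 0.0539); without LPS replicate 1 the call held, at -1.37. Fcna stood at 14.7, 6.76 and 7.09 CPM in LPS replicates 1 to 3. Of the Kupffer cell markers, Clec4f stood at 24.1, 5.47 and 7.28 CPM and Vsig4 at 10.9, 3.60 and 1.93 CPM in these mice. The log2 fold changes against control were -2.13 for Clec4f, -0.92 for Vsig4 and -0.26 for Cd5l. They were 0.19 for Timd4, 0.29 for Folr2, 1.62 for Adgre1 and 5.62 for Marco, the rest of the list. Clec4f was called lower, Marco and Adgre1 were called higher, and the others did not pass. The part of Kupffer cell content in the value of Fcna was not tested. Masp2, the protease that cuts C4 and C2, went from 100.2 ± 4.61 to 73.7 ± 11.4 CPM (SD, n = 4 and n = 3), with a log2 fold change of -0.44 (SE 0.14, edgeR adjusted p = 0.0385), with each LPS mouse below each control mouse. Its call ended without control replicate 4 (-0.42, edgeR adjusted p = 0.0792) or any of LPS replicates 1 (-0.32, edgeR adjusted p = 0.153), 2 (-0.53, edgeR adjusted p = 0.0635) and 3 (-0.48, edgeR adjusted p = 0.0957), with LPS replicates 2 and 3 summed (-0.50, edgeR adjusted p = 0.0832), with the replicate block (-0.42, edgeR adjusted p = 0.0864) and without the filter (-0.44, edgeR adjusted p = 0.0641). Masp1, the protease that activates Masp2, did not pass, at 150.4 ± 9.02 CPM in control mice and 156 ± 14.3 CPM in LPS mice (log2 fold change 0.06, SE 0.13).

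C3 is the point at which the pathways meet, and its fragments coat targets and drive the later steps. It stood at 2312, 3537, 4031 and 3939 CPM in control replicates 1 to 4 and at 9057, 12858 and 13134 CPM in LPS replicates 1 to 3. The lowest LPS mouse was above the highest control, and the log2 fold change was 1.76 (SE 0.23, edgeR adjusted p = 0.000126), or 3.38-fold. Of all counts, C3 took 0.96% to 1.19% in LPS mice and 0.218% to 0.439% in control mice. The alternative pathway genes Cfb and Cfp were higher and Cfd was lower. Cfb, the protease of the alternative C3 convertase, went from 88.8 ± 8.29 to 139 ± 13.3 CPM (SD, n = 4 and n = 3), with a log2 fold change of 0.65 (SE 0.14, edgeR adjusted p = 0.00414), and the groups did not overlap. Cfp, which encodes properdin, the stabiliser of that convertase, stood at 9.54, 10.8, 8.06 and 7.10 CPM in control mice and at 41.4, 13.1 and 15.5 CPM in LPS mice. Its LPS mice lay above all controls, with LPS replicate 1 far above the others, and the log2 fold change was 1.40 (SE 0.34, edgeR adjusted p = 0.00853). Without LPS replicate 1 it was 0.69 (edgeR adjusted p = 0.0450).

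Cfd encodes factor D, the protease that cuts factor B and is known as adipsin from fat cells. It had 35, 39, 17 and 4 counts in control replicates 1 to 4 and 7, 5 and 3 counts in LPS replicates 1 to 3. These correspond to 2.47, 2.46, 1.04 and 0.193 CPM in control mice and to 0.322, 0.322 and 0.187 CPM in LPS mice. Control replicate 4 lay within the LPS mice, so the groups overlapped, and the log2 fold change of -2.42 had an SE of 0.82 (edgeR adjusted p = 0.0463). The call ended without LPS replicate 1 (-2.55, edgeR adjusted p = 0.0974), LPS replicate 2 (-2.52, edgeR adjusted p = 0.116) or LPS replicate 3 (-2.22, edgeR adjusted p = 0.153), and with LPS replicates 2 and 3 summed (-2.38, edgeR adjusted p = 0.119). Without control replicate 1, 2 or 3 the gene did not pass the filter. Of the adipocyte list, 1 of 5 genes could be tested. Adipoq had at most 0.353 CPM, Plin1 at most 0.141 CPM and Retn at most 0.046 CPM in any mouse, and Lep was at 0 in all of them. The most abundant was Cidec, a lipid droplet gene that fatty hepatocytes also express, which rose (log2 fold change 3.06, edgeR adjusted p = 4.35e-05). The list summed to 2.76, 0.946, 1.65 and 0.773 CPM in control mice and to 8.65, 11.6 and 14.6 CPM in LPS mice. The defining fat cell genes were at or near 0 in both groups. The few reads of Adipoq and Plin1, 5 and 2, all fell in control replicate 1. The part of fat cell content in the values of Cfd was not tested.

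The terminal pathway had 0 genes higher, 3 lower and 4 that did not pass, with a median log2 fold change of -0.42. C8, which lets the growing pore enter the membrane, is made of the chains encoded by C8a, C8b and C8g. C8g stood at 379, 351, 279 and 269.99 CPM in control replicates 1 to 4 and at 118, 126 and 125 CPM in LPS replicates 1 to 3. The LPS mice lay close together and below all controls, a log2 fold change of -1.38 (SE 0.16, edgeR adjusted p = 4.72e-05). C8b went from 466 ± 106 to 286 ± 68.7 CPM (SD, n = 4 and n = 3), with a log2 fold change of -0.71 (SE 0.21, edgeR adjusted p = 0.0274), and C8a from 855 ± 94.1 to 639 ± 59.7 CPM, a log2 fold change of -0.42 (SE 0.15, edgeR adjusted p = 0.0627). The LPS mice were below the controls in both chains. C8a therefore did not pass here, but it did with DESeq2 (DESeq2 adjusted p = 0.0199) and without scaling factors (-0.55, edgeR adjusted p = 0.0248), with mitochondrial genes left out (edgeR adjusted p = 0.0455), with at least 10 counts required in every mouse (edgeR adjusted p = 0.0397) and without control replicate 1 (edgeR adjusted p = 0.0478). The call of C8b ended without control replicate 3 (-0.55, edgeR adjusted p = 0.0519), control replicate 4 (-0.69, edgeR adjusted p = 0.0538), LPS replicate 1 (-0.52, edgeR adjusted p = 0.0983) or LPS replicate 2 (-0.78, edgeR adjusted p = 0.0612), and with LPS replicates 2 and 3 summed (-0.80, edgeR adjusted p = 0.0565). The reads of C8g per read of C8a were 0.486, 0.407, 0.283 and 0.341 in control mice and 0.206, 0.188 and 0.184 in LPS mice. The groups did not overlap in this ratio. The reads of C8b per read of C8a were 0.490, 0.450, 0.619 and 0.612 in control mice and 0.364, 0.472 and 0.494 in LPS mice, with overlap. Differences between the fold changes of the chains were not tested.

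C6, which joins the complex after C5 is cut, stood at 258, 258, 353 and 371 CPM in control replicates 1 to 4 and at 168, 169 and 172 CPM in LPS replicates 1 to 3. All LPS mice were below the controls and within a narrow range, a log2 fold change of -0.87 (SE 0.17, edgeR adjusted p = 0.00216). Hc, which encodes C5, the source of the anaphylatoxin C5a and of the start of the pore, was at 639 ± 84.2 CPM in control mice and 646 ± 73.3 CPM in LPS mice (SD, n = 4 and n = 3). The log2 fold change of Hc was 0.01 with an SE of 0.16, and the groups overlapped. C9, the subunit that lines the pore, was at 744 ± 205 and 603 ± 145 CPM (log2 fold change -0.30, SE 0.23, edgeR adjusted p = 0.367), with overlap. C7, which anchors the complex to the membrane, had between 0 and 19 counts per mouse, and its log2 fold change of -0.15 had an SE of 1.04 and did not pass. The counts of C7 spread widely within both groups, at 1, 12, 0 and 19 in control replicates 1 to 4 and 16, 1 and 6 in LPS replicates 1 to 3, and the value was -1 without LPS replicate 1 and 0.33 without LPS replicate 2.

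Regulators in plasma had 5 of 7 genes higher, 0 lower and 2 that did not pass, with a median log2 fold change of 1.03. C4bp, which encodes the protein that binds C4b and helps to break it down, stood at 643, 726, 811 and 722 CPM in control replicates 1 to 4 and at 1573, 2263 and 2233 CPM in LPS replicates 1 to 3. Serping1, which encodes the inhibitor of C1r, C1s and the lectin pathway proteases, stood at 461, 539.8, 712 and 593 CPM in control mice and at 1025, 1353 and 1336 CPM in LPS mice. In both genes the lowest LPS mouse, LPS replicate 1, was above the highest control, replicate 3. The log2 fold change was 1.48 for C4bp (SE 0.17, edgeR adjusted p = 4.75e-05) and 1.10 for Serping1 (SE 0.18, edgeR adjusted p = 0.000638). The reads of C4bp per read of C4b, its target, were 0.864, 0.732, 0.999 and 0.950 in control mice and 1.21, 1.65 and 1.62 in LPS mice, again without overlap.

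Vtn and Clu encode vitronectin and clusterin, which bind the forming terminal complex and keep it out of membranes. Vtn stood at 2415, 2743, 2477 and 2069.6 CPM in control replicates 1 to 4 and at 5195, 5962 and 6008 CPM in LPS replicates 1 to 3. Clu stood at 785, 1003, 1221 and 1030.0 CPM in control mice and at 1574, 2252 and 2357 CPM in LPS mice. Each LPS mouse exceeded each control mouse in both genes, with LPS replicate 1 the lowest of its group. The log2 fold change was 1.24 for Vtn (SE 0.17, edgeR adjusted p = 0.000181) and 1.03 for Clu (SE 0.20, edgeR adjusted p = 0.00194). Cpn1 and Cpn2 encode the catalytic and the regulatory subunit of carboxypeptidase N, which trims the anaphylatoxins C3a and C5a. Cpn1 went from 169 ± 25.3 to 248 ± 16.5 CPM (SD, n = 4 and n = 3), with a log2 fold change of 0.55 (SE 0.15, edgeR adjusted p = 0.0169), and Cpn2 from 212 ± 31.0 to 284 ± 33.1 CPM, a log2 fold change of 0.42 (SE 0.16, edgeR adjusted p = 0.0652). The LPS mice were above the controls in both. The call of Cpn1 ended without LPS replicate 2 (0.54, edgeR adjusted p = 0.0738) or LPS replicate 3 (0.52, edgeR adjusted p = 0.0817), with LPS replicates 2 and 3 summed (0.53, edgeR adjusted p = 0.0757) and without scaling factors (0.42, edgeR adjusted p = 0.0940). Cpn2 did pass with DESeq2 (DESeq2 adjusted p = 0.0399), without control replicate 3 (edgeR adjusted p = 0.0350) and without LPS replicate 1 (edgeR adjusted p = 0.0481). Cfi, the protease that inactivates C3b and C4b, was at 582 ± 119 and 639.9 ± 122 CPM (log2 fold change 0.14, SE 0.19), with overlap.

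**Figure D3:**
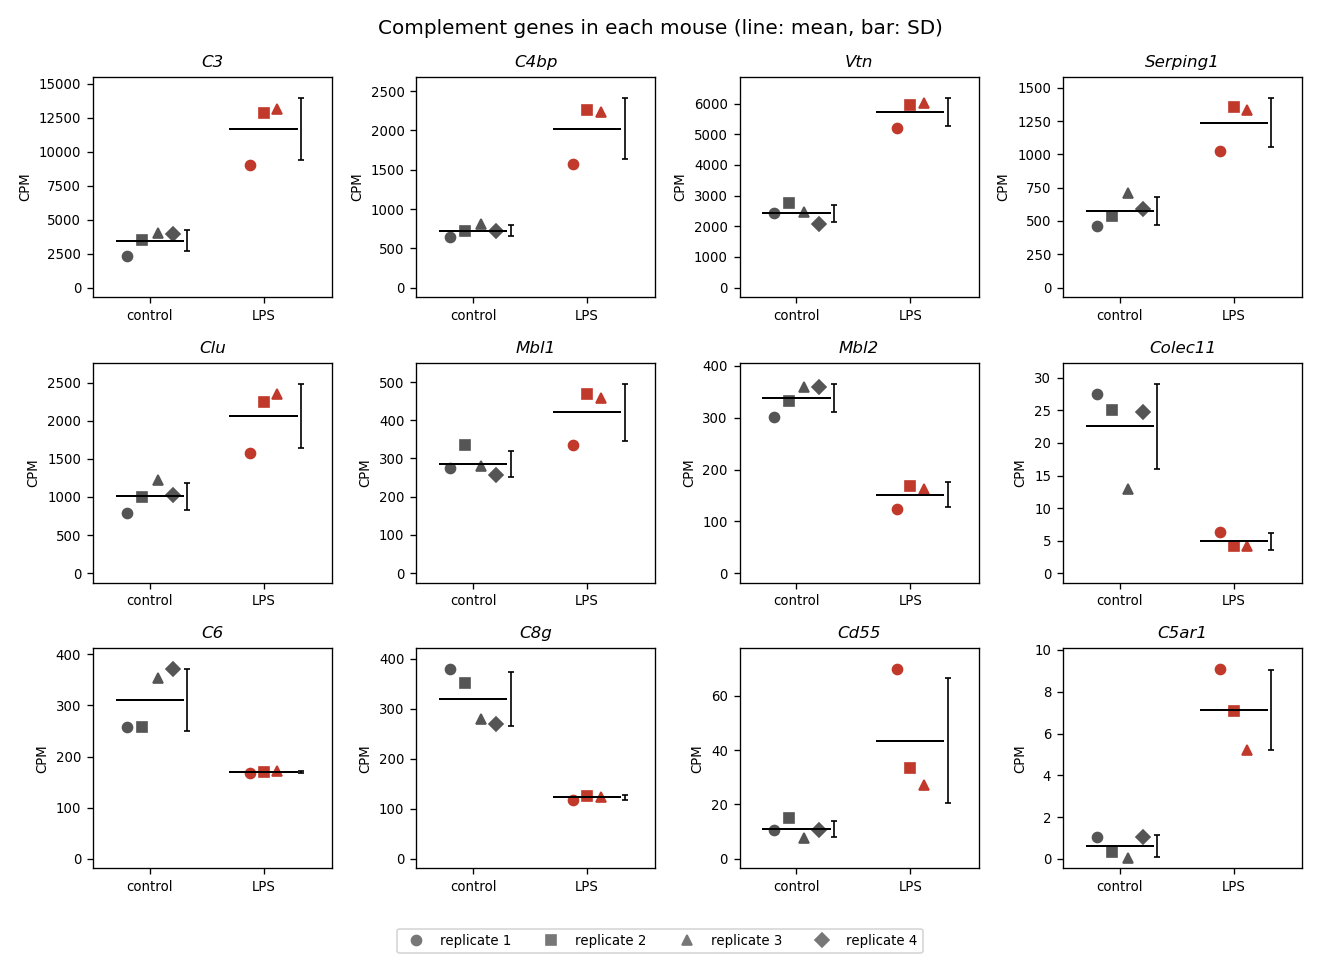
CPM (vertical axes) of 12 complement genes in each control mouse (grey, n = 4) and LPS mouse (red, n = 3); symbols give the replicate, lines the mean and bars the SD. C3, C4bp, Vtn, Serping1, Clu, Mbl1, Cd55 and C5ar1 are higher and Mbl2, Colec11, C6 and C8g lower in all LPS mice than in all control mice, by the least in Mbl1.

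Among the regulators on cell membranes 1 of 3 was higher, 0 were lower and 2 did not pass. Cd55, which encodes decay accelerating factor, an inhibitor of the C3 convertases, stood at 10.7, 14.9, 7.75 and 10.5 CPM in control replicates 1 to 4 and at 69.6, 33.5 and 27.2 CPM in LPS replicates 1 to 3. All LPS mice lay above the controls, with LPS replicate 1 at the top, and the log2 fold change was 1.99 (SE 0.30, edgeR adjusted p = 0.000337), or 3.98-fold. Without LPS replicate 1 it was 1.48. Cd55 shares 10.7% of its 50-base windows with its copy Cd55b, which had at most 2 counts in a mouse. Cd59a, which encodes a blocker of the pore's last step, stood at 48.6, 69.2, 47.1 and 47.7 CPM in control mice and at 33.4, 42.9 and 44.6 CPM in LPS mice. The LPS mice were below the controls, of which control replicate 2 was far above the others, and the log2 fold change of -0.40 did not pass (SE 0.18, edgeR adjusted p = 0.116), except without scaling factors (-0.53, edgeR adjusted p = 0.0490). Cr1l, which encodes Crry, the rodent inhibitor of C3 deposition on the body's own cells, stood at 39.1, 47.3, 51.6 and 55.1 CPM in control mice and at 47.7, 47.4 and 44.6 CPM in LPS mice. The LPS mice lay inside the range of the controls, with a log2 fold change of -0.05 (SE 0.15).

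The receptors for the anaphylatoxins had 2 of 3 genes higher, 0 lower and 1 that did not pass. Among all genes tested, 13.3% were higher and 13% lower. Of these receptors, C5ar1 entered the test through the LPS mice and could hardly have been called lower, and C5ar2 entered it through the control mice. C5ar1, the receptor through which C5a draws and activates neutrophils and macrophages, had 15, 5, 1 and 22 counts in control replicates 1 to 4 and 197, 110 and 84 counts in LPS replicates 1 to 3. This corresponds to 1.06, 0.315, 0.061 and 1.06 CPM in control mice and to 9.07, 7.08 and 5.22 CPM in LPS mice. The groups lay far apart, with a log2 fold change of 3.49 (SE 0.56, edgeR adjusted p = 0.000558). It was 4.13 with the replicate block and lay between 3.11 and 3.92 with a mouse left out, called in each of these fits. C3ar1, the receptor of C3a, stood at 0.777, 1.39, 1.16 and 0.918 CPM in control mice and at 3.77, 3.35 and 3.61 CPM in LPS mice. Its LPS mice were also above all controls, with a log2 fold change of 1.75 (SE 0.37, edgeR adjusted p = 0.00419). C5ar2, a further receptor of C5a that does not signal through G proteins, stood at 1.48, 1.83, 1.10 and 0.338 CPM in control mice and at 1.33, 0.579 and 0.249 CPM in LPS mice. The groups overlapped, and the log2 fold change of -0.67 did not pass (SE 0.70, edgeR adjusted p = 0.528). Without LPS replicate 1 it was -1.49 (edgeR adjusted p = 0.234), and with each other mouse left out it lay between -0.99 and -0.28.

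Neutrophil markers are given beside C5ar1. Of 11 listed, 9 were tested and 9 were higher, but 7 of the 9 entered the test only through the LPS mice, since fewer than 3 control mice reached the filter's minimum, and could hardly have been called lower. The others, S100a9 and Csf3r, reached it in all mice and were higher too. The list summed to 5.23, 4.10, 1.95 and 3.53 CPM in control replicates 1 to 4 and to 224, 166 and 163 CPM in LPS replicates 1 to 3. S100a9 was the most abundant over all mice (though Csf3r led in the control mean), Ngp was at 0 in all control mice, and Ly6g, a defining marker that was not tested, had 0 CPM in all control mice and at most 0.322 CPM in an LPS mouse. LPS replicate 1 was the highest mouse both for C5ar1 and for this sum. The same mouse was also highest for the sums of the Kupffer cell list and of the monocyte and macrophage list. The part of neutrophil or macrophage content in the values of C5ar1, C3ar1 and Cfp was not tested.

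Other genes tied to complement were taken from a separate list, shortened to 21 genes after its values were seen. Of these 15 were tested, with 8 higher and 4 lower, against 13.3% and 13% of all genes tested; as the shortening changes such counts, nothing about the list is read from them. Itgam and Itgb2, the chains of complement receptor 3 on neutrophils and macrophages, had the log2 fold changes 6.39 (SE 0.53, edgeR adjusted p = 2.28e-06) and 2.90 (SE 0.36, edgeR adjusted p = 6.69e-05). Itgam went from 0.525 ± 0.699 to 41.5 ± 10.1 CPM (SD, n = 4 and n = 3). It reached the filter's minimum in 1 control mouse and 3 LPS mice, so Itgam entered the test through the group in which it was high. Without control replicate 1, the control mouse with most Itgam reads, its value was 7.73, and without LPS replicate 1 that of Itgb2 was 2.32; both still passed. Apcs and Crp, pentraxins of plasma that bind C1q, rose with log2 fold changes of 4.68 (SE 0.27, edgeR adjusted p = 9.85e-08) and 1.01 (SE 0.15, edgeR adjusted p = 0.000299). Apcs, a major acute phase protein of mice, went from 142 ± 45.5 to 3633 ± 756 CPM. Pros1, which encodes protein S of plasma, rose by a log2 fold change of 1.36 (SE 0.15, edgeR adjusted p = 2.49e-05). Cpb2, a carboxypeptidase that can inactivate C5a, rose by 1.68 (SE 0.18, edgeR adjusted p = 2.41e-05). Both were called higher, as were 5 of the 7 plasma regulators, and the likeness to that branch was not tested. Cd59b, the copy of Cd59a, and Susd4, an inhibitor of complement on membranes, fell with log2 fold changes of -2.67 (SE 0.50, edgeR adjusted p = 0.00175) and -1.73 (SE 0.34, edgeR adjusted p = 0.00241). Cd59b was at a low level, with 45 to 71 counts per control mouse and 6 to 17 counts per LPS mouse. It reached the filter's minimum in 4 control mice and 1 LPS mouse, so Cd59b entered the test through the group in which it was high. Cd59b shares 9.37% of its 50-base windows with Cd59a, and its log2 fold change was -3.37 without LPS replicate 3. Calr, which rose with a log2 fold change of 0.95 (SE 0.185, edgeR adjusted p = 0.00223), is named after its values were seen. So are C1qbp and Colec12, which fell. Their log2 fold changes of -0.57 and -0.75 did not pass without LPS replicate 2 (edgeR adjusted p = 0.170 and 0.0583) or with LPS replicates 2 and 3 summed (0.116 and 0.0523), and in the fits without a mouse C1qbp passed only when control replicate 3 or control replicate 4 was the mouse left out.

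Cd93, a receptor of endothelium and myeloid cells, rose from 4.65 ± 1.55 to 17.0 ± 5.16 CPM (log2 fold change 1.88, SE 0.28, edgeR adjusted p = 0.000278). Sinusoidal endothelium markers, of which 8 of 8 were tested with Stab2 the most abundant over all mice (though Clec4g led in the control mean and Pecam1 in the LPS mean) and none at 0 in all mice, had 2 higher (Lyve1 and Pecam1), 2 lower (Clec4g and Kdr) and 4 that did not pass; the call of Kdr ended without control replicate 2 or 4 (edgeR adjusted p = 0.0693 and 0.0542) and without LPS replicate 2 or 3 (0.0752 and 0.103), and with LPS replicates 2 and 3 summed (0.0826), and without LPS replicate 1 the log2 fold change of Pecam1 went from 1.28 to 0.81, still called. They summed to 130, 164, 102 and 135 CPM in control replicates 1 to 4 and to 161, 96.1 and 95.9 CPM in LPS replicates 1 to 3. Clec4g reached the filter's minimum in 4 control mice and 2 LPS mice, so it entered the test through the control mice. Cr2, the complement receptor of B cells, had at most 10 counts and was not tested. Of 7 markers of B and T cells 2 were tested and neither passed, with Cd79a the most abundant over all mice (though Nkg7 led in the LPS mean), and the list summed to 4.10, 4.22, 3.24 and 2.08 CPM in control mice and to 1.98, 0.965 and 2.43 CPM in LPS mice. The part of these cells in the values of Cd93 and Cr2 was not tested.

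Levels of different genes were compared per length, as mean CPM per kb of exon, with lengths from GENCODE M21 for all 41 genes. In control mice the highest levels were those of Vtn at 1391, C3 at 673, Clu at 558, C9 at 363 and Mbl2 at 310.3 CPM per kb. In LPS mice they were those of Vtn at 3281, C3 at 2275, Clu at 1139, C4bp at 664.5 and Serping1 at 616 CPM per kb. By this scale C4bp moved from place 8 to place 4 among the complement genes and Mbl2 from place 5 to place 12. The genes encoding the pore subunits C8a, C8b and C8g ranged from 208 to 238 CPM per kb in control mice and from 91.5 to 176 CPM per kb in LPS mice.

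Upstream sequences are shown because C3, C4bp and Vtn rose together and are among the most abundant transcripts per length in LPS mice. Of the 11 complement genes that rose with an absolute log2 fold change above 1, 8 had a promoter in the RefSeq table used (build GRCm38.p6), and C4a, Serping1 and Clu did not. The 250 bases before the start of each gene were searched on both strands for the C/EBP motif TTGCNNAA, the STAT motif TTCNNNGAA and the consensus of NF-kappa B, factors known from acute phase genes. For C1qb alone the bases after this start were not found in its transcript, so its window may not lie at the gene's start. The C/EBP motif was found in 1 of the 8 promoters, that of C3, and in 9.56% of the 32851 promoters of the table. The STAT motif was found in 0 of the 8 and in 7.02% of all, and the NF-kappa B consensus in 0 of the 8 and in 3.9% of all. In C3 the match lies on the strand of the gene, 45 to 38 bases before the start, overlaps no other searched motif and is in capitals below. Such a match is a description of letters and not of a bound site, and a missing match says only that these letters are not in this window. The sequences run 5′ to 3′ on the strand of the gene, up to the base before its start. C3 lies at chr17:57228137-57228386 on the minus strand, C4bp at chr1:130661619-130661868 on the minus strand and Vtn at chr11:78498870-78499119 on the plus strand.
C3: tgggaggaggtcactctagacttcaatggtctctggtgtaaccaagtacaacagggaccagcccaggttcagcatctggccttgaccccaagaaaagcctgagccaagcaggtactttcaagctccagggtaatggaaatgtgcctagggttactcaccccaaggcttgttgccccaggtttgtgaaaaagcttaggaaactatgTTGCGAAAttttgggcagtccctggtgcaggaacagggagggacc
C4bp: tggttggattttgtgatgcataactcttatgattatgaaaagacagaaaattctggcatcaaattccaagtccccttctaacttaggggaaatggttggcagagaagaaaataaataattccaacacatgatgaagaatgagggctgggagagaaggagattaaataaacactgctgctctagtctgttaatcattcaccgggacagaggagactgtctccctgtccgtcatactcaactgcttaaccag
Vtn: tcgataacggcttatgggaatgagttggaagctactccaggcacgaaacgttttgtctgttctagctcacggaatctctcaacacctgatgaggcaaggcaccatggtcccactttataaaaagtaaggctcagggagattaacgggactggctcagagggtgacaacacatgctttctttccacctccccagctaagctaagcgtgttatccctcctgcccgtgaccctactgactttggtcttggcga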

How the data were processed

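The deposited files hold raw counts from the authors, reads per gene for 56691 genes and 7 liver samples. Processing notes of the submitters name cutadapt 1.9.1, HISAT2 2.2.1, HTSeq 0.6.1, DESeq2 1.34.0 and the build GRCm39; the counting of reads that match several genes is not given in the sources used here. Computation used edgeR 4.0.16 in R 4.3.3: filterByExpr, TMM scaling, and a quasi-likelihood test of LPS against control without covariates, its p-values adjusted by Benjamini-Hochberg over 13683 genes and called below 0.05. The SE was derived from the F statistic. The steps were tested on simulated data, where changes of an absolute log2 fold change of 1 were recovered only in part and false calls ran above the threshold. That samples are separate animals rests on the labels and on the numbers of mice the paper gives, 4 control and 3 LPS. Members and lists were chosen with earlier results of these data known. Each mouse's value is given for called members with an absolute log2 fold change above 1, receptors, membrane regulators, C3 and C1q chains; other complement genes are named where called with an absolute log2 fold change above 1, and some genes first listed are left out of the lists and not reported here. Transcripts and lengths came from GENCODE M21 (GRCm38) and promoters from RefSeq (GRCm38.p6). Alternatives were DESeq2 1.42.0, RLE factors, no scaling, other filters, genes over 1% of the counts or mitochondrial genes left out, stricter calls, a replicate block, each mouse left out, LPS replicates 2 and 3 summed, and C4a summed with C4b.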

Additional observations from a re-analysis of the deposited data

Results flagged for a closer look

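Of 57 sets of control values examined, 2 held a mouse far from the others, and chance alone would give about 1 in 20. C1qb stood at 10.4 CPM in control replicate 4, while the other control mice lay between 14.8 and 15.3 CPM, a gap of 0.883 of the whole range. Cd59a stood at 69.2 CPM in control replicate 2, while the other control mice lay between 47.1 and 48.6 CPM, a gap of 0.932 of the range. The causes were not tested.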

How the results depend on the processing

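Of the 25 calls among the complement genes, 17 passed with each mouse left out, wherever they were tested, and 18 in all other fits that tested them; Cfd, C7, C5ar1 and C5ar2 were not tested where at least 10 counts were required in every mouse. The number of complement genes lower, 9 here, was 5 with LPS replicates 2 and 3 summed, with an absolute log2 fold change above 1 or with an adjusted p below 0.01, lay between 5 and 8 with a mouse left out and was 11 without scaling and 10 with DESeq2 or with mitochondrial genes left out; the number higher, 16 here, lay between 11 and 17 over all alternatives. Other complement genes lower, 4 here, were 2 without LPS replicate 2, with LPS replicates 2 and 3 summed or with an absolute log2 fold change above 1. Over all genes, 1068 were higher and 1000 lower with an absolute log2 fold change above 1, 1091 and 993 with an adjusted p below 0.01, and between 1146 and 1868 were lower with a mouse left out. Without scaling the median log2 fold change of all genes moved from -0.01 to -0.13, and log2 fold changes changed sign to -0.08 in C1s1, -0.07 in Masp1 and -0.12 in Hc and came to 0.00 in Cfi. Hc was also at -0.01 with at least 10 counts in every mouse, at -0.02 with LPS replicates 2 and 3 summed and between -0.07 and 0.11 with a mouse left out. C7 came to 0.08 with LPS replicates 2 and 3 summed and to between -1 and 0.33 with a mouse left out. C1qc lay between -0.18 and 0.77 and Cr1l between -0.14 and 0.01 with a mouse left out. None of these genes passed the test in any of these fits, and the causes were not tested. The replicate numbers did not pair the mice: samples of the same number had correlations of 0.20, -0.06 and 0.08 in their deviations from the group means, and control replicate 2 correlated more with LPS replicate 1, at 0.07. With the replicate block, 14 of the genes higher and 8 of those lower kept their call, C1qa, Mbl1 and Masp2 did not, and C7 came to 0.96 and Cr1l to 0.03.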
